A study of Mus musculus with 4 samples.

Results

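The unfolded protein response and the integrated stress response were followed through 35 genes in mouse liver RNA, out of 24346 gene symbols in the expression files. The 35 genes were chosen by name for their place in these pathways, with earlier results of these data known. They comprised 8 stress sensors and transcription factors, and 14 chaperones and folding enzymes of the endoplasmic reticulum (ER). The others were 6 genes of ER-associated degradation and 7 targets of the transcription factor Atf4. RNA sequencing covered 4 liver samples of male C57BL/6 mice that were 8 weeks old when the feeding began. All mice had received the NASH diet, a steatohepatitis-inducing feed rich in fat, cholesterol and sucrose with added bile salt, for 3 weeks, and there was no group on a normal diet. The feed of the 7KC group (n = 2) was supplemented with 7-ketocholesterol (7KC), an oxysterol formed when cholesterol oxidizes, and the control group (n = 2) ate it without 7KC. The comparison asks how dietary 7KC was accompanied by changes in liver gene expression on top of the NASH diet. The labels do not say that the libraries came from separate animals, so the p-values measure only the spread between these samples, which may be technical.

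When unfolded proteins build up in the ER, the membrane sensors Ern1 (IRE1), Eif2ak3 (PERK) and Atf6 are activated. Ern1 splices the mRNA of Xbp1, Eif2ak3 phosphorylates the translation factor eIF2α and so favours translation of Atf4, and Atf6 is cut in the Golgi to release a transcription factor. Xbp1 and Atf6 switch on chaperones and degradation genes, whereas Atf4, which also serves starvation for amino acids and other stresses, switches on amino acid enzymes, Ddit3 (CHOP) and feedback regulators. The liver, which secretes most plasma proteins, uses this machinery at a high basal level. Splicing, phosphorylation and cleavage cannot be seen in a single value per gene, so the data bear on transcript levels alone.

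The ER stress element (ERSE), to which Atf6 and Xbp1 bind, was searched for as CCAAT followed after 9 bases by CCACG, and the C/EBP-ATF response element (CARE), to which Atf4 binds, as TGATGNAA, both on either strand. Promoter windows of 300 bases, which reach from 250 bases before to 50 bases after a transcription start, were taken from RefSeq on the GRCm38.p6 assembly for 31 of the 35 genes. The exact ERSE stood in 0.119% of all 32851 windows and in the windows of 9 of the 31 genes. These were the chaperone and folding genes Hspa5, Hsp90b1, Calr, Canx, Pdia6, Dnajc3 and Creld2 and the degradation genes Syvn1 and Derl3. CARE stood in 3.97% of all windows, in 2.81% of the tested genes that had a window, and in the windows of Atf3, Herpud1, Trib3, Chac1 and Asns. The windows below are shown because their genes carry the results that follow. They run 5′ to 3′ on the strand of the gene, with the letters of the motif in capitals.
Hspa5, chr2:34771840-34772139, plus strand: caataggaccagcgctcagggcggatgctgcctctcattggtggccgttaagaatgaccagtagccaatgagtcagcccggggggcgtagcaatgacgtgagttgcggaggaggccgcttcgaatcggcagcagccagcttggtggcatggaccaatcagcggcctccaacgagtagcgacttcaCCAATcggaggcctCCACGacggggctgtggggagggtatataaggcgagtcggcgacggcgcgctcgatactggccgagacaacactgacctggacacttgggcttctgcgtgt
Hsp90b1, chr10:86705395-86705694, minus strand: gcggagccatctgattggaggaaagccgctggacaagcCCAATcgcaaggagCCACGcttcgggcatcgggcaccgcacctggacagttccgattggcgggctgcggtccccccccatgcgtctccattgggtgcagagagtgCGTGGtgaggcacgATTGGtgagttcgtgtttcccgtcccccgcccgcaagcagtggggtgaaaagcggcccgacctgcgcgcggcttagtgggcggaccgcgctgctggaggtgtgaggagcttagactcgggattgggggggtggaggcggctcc
Creld2, chr15:88819396-88819695, plus strand: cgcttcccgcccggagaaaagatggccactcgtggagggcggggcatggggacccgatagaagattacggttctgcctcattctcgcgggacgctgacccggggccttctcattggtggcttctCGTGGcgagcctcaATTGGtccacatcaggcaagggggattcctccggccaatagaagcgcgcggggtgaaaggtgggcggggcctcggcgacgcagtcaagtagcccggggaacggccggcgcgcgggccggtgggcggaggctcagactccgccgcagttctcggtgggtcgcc
Syvn1, chr19:6046326-6046625, plus strand: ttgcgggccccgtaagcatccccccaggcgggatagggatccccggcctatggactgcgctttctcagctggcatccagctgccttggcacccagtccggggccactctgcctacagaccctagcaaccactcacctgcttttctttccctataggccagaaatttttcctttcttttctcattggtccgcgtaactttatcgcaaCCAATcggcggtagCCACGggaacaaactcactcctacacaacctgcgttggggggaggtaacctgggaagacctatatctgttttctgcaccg
Atf3, chr1:191183284-191183583, minus strand: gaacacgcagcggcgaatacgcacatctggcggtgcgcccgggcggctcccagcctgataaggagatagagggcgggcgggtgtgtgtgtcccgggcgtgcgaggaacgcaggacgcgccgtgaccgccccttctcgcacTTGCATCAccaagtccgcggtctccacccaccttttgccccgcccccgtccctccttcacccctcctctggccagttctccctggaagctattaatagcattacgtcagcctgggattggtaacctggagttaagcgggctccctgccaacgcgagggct
Trib3, chr2:152344011-152344310, minus strand: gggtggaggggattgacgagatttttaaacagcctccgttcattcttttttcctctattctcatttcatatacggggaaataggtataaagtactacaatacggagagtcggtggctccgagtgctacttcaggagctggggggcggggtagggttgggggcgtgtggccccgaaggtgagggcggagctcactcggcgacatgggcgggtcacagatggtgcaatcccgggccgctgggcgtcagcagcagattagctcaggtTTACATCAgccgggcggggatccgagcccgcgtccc
Asns, chr6:7693160-7693459, minus strand: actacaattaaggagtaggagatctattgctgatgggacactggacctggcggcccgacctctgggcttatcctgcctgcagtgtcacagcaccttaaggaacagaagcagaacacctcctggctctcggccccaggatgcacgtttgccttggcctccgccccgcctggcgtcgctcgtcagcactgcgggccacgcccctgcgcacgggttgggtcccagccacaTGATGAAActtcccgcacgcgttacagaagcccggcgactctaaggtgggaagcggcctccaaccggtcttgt
In the first 4 of these windows the capitals mark the CCAAT and CCACG letters of the ERSE, or their reverse complements, and Hsp90b1 holds the element on both strands. In the last 3 they mark CARE. A match is only a description of the letters in the window, and a gene without one may hold the element elsewhere. The UPRE core, ACGTGG, was found in 8.31% of all windows, and in 13.1% of the tested genes that had a window. Of the 31 genes it was found in 6, namely Creb3l3, Pdia6, Dnajb9, Dnajc3, Herpud1 and Derl3. The reverse complement of the UPRE core can overlap the CCACG of the ERSE. The palindromic CRE, TGACGTCA, was found in 1.79% of windows, in 3.46% of the tested genes that had a window, and in the window of Ppp1r15a.

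All 35 genes had a mean of at least 0.5 FPKM and entered the test. FPKM counts fragments relative to exon length and to the total mapped in that library, and changes are given as 7KC minus control of log2(FPKM + 0.5), a scale that understates the change of low genes. None of the 35 genes passed the threshold of an adjusted p of 0.05 in limma, against 0.504% of the 12299 genes tested, and the smallest adjusted p was 0.121 for Atf3. At an unadjusted p under 0.05, 7 of the 35 genes were lower in the 7KC group, against 5.81% of all genes tested, and 1 was higher, against 12.0%. Both 7KC libraries lay below both control libraries for 16 of the 35 genes, against 27.4% of all genes tested. They lay above both for 3, against 25.1%, and the groups overlapped for the other 16. The fitted change was below 0 for 31 of the 35 genes, against 6625 of all 12299 genes tested, with medians of -0.38 and -0.03. When each library was scaled to the same sum it was below 0 for 25 genes, with a median of -0.18 beside 0.17. On the deposited scale Atf3, Ddit3, Creb3l3 and Psat1 were the 4 with a fitted change above 0. With 2 libraries against 2, an exact two-sided permutation test of a single gene cannot go below p = 0.333, so no such p is given.

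**Figure D1:**
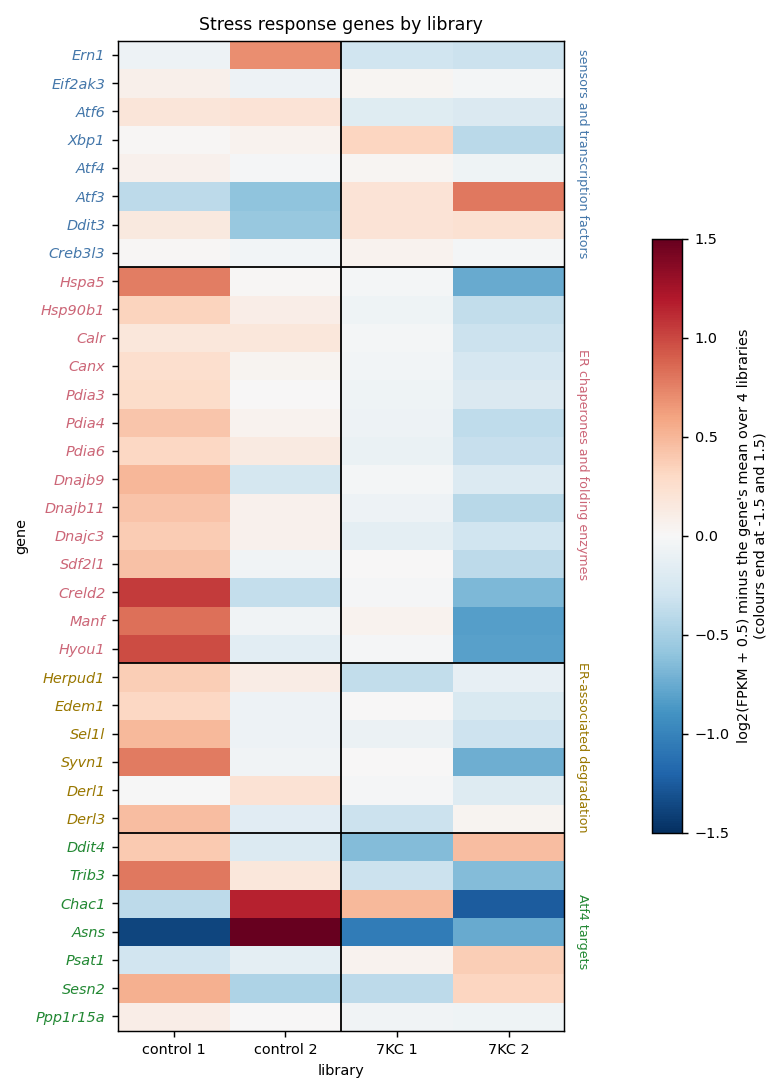
Heatmap of the 35 genes (rows, grouped by role) in the 4 libraries (columns), coloured by log2(FPKM + 0.5) minus the gene's mean over the libraries, with colours ending at -1.5 and 1.5. Control replicate 1 is the highest library for all 14 ER chaperones and folding enzymes, and for 3213 of the 12299 genes tested. 7KC replicate 2 is the lowest for 13 of the 14, and for 4189 of the 12299.

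The libraries held an estimated 13700000 to 17100000 mapped reads, with control replicate 1 the deepest. For a transcript of 2000 bases, 1 FPKM stood for 24.6 to 30.8 reads. The sum of FPKM over all symbols was 685028 and 671235 for the controls, and 619828 and 557138 for the 7KC libraries. Markers of hepatocytes lay lower in the 7KC group on this scale, since all 14 had a fitted change below 0, with a median of -0.38. For 10 of them both 7KC libraries lay below both controls, against 27.4% of all genes tested, and none passed the limma threshold. With the libraries scaled to the same sum 11 of the 14 were below 0 with a median of -0.17. Relative to all genes this was -0.34, beside -0.35 on the deposited scale. After quantile normalization 10 were below 0 with a median of -0.12, or -0.04 relative to all genes. Their summed level was 77054 to 89990 FPKM in the control libraries and 53511 to 67259 FPKM in the 7KC libraries, and no hepatocyte marker was at 0. Of 12 monocyte and macrophage markers, 11 had a fitted change above 0, with summed levels of 484 to 709 FPKM in the control and 1251 to 1961 FPKM in the 7KC libraries. For all 11 T and NK cell markers tested, both 7KC libraries lay above both controls, against 25.1% of all genes tested. In bulk tissue, fewer cells of a type and less RNA per cell cannot be told apart.

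The 3 sensors had fitted changes of different size, but their 95% intervals overlapped, and differences between the sensors were not tested. Atf6 (mm10 chromosome 1, 170704674 to 170867771, minus strand), which becomes a transcription factor when cleaved, was at 13.9 and 14.1 FPKM in the controls and at 10.7 and 10.4 FPKM in the 7KC libraries. Its replicates nearly coincided, and both 7KC libraries were the lower. The log2 change was -0.39 (SE 0.11, 95% interval -0.66 to -0.13), with an unadjusted p of 0.0125 that did not survive adjustment over all genes (limma adjusted p = 0.159).

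Ern1 (chromosome 11, 106394650 to 106487852, minus strand), the kinase and RNase that splices Xbp1, was at 11.7 and 20.4 FPKM in the control and at 9.91 and 9.75 FPKM in the 7KC libraries. The 7KC libraries were the lower ones, but the control libraries differed 1.74-fold from each other. The log2 change was -0.63 (SE 0.26, limma adjusted p = 0.296). Its size rested on control replicate 2. Without that library it was -0.24. Without control replicate 1 it was -1.01 and passed (limma adjusted p = 0.0368, over the alternatives 0.0368 to 0.704), with the lone control library assumed to vary like the other group.

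Eif2ak3 (chromosome 6, 70844515 to 70905245, plus strand), the eIF2α kinase of the ER membrane, was at 4.23 and 3.77 FPKM in the control and at 4.09 and 3.89 FPKM in the 7KC libraries. The groups overlapped, and the 95% interval of the log2 change was -0.33 to 0.33. The direction of so small a value turned with the scaling of the libraries.

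Among the transcription factors, Atf4 and Xbp1 showed no difference beyond the spread between replicates. Atf4, the effector of the integrated stress response, was at 42.7 and 40.3 FPKM in the control and at 41.7 and 39.0 FPKM in the 7KC libraries. Its groups overlapped, and the 95% interval of the log2 change was -0.32 to 0.23. Total Xbp1, in which spliced and unspliced forms are counted together, was at 126 and 129 FPKM in the control and at 156 and 94.1 FPKM in the 7KC libraries. The 2 control libraries lay between the 2 7KC libraries, and the interval of its log2 change, -0.70 to 0.56, was correspondingly wide.

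Creb3l3 (CREBH), a liver-enriched relative of Atf6 that is likewise released by cleavage, was among the more abundant of the 35 genes, at 145 to 154 FPKM in the 4 libraries. Its groups overlapped, with a 95% interval of the log2 change of -0.26 to 0.31. Of 6 genes linked to Creb3l3 in liver that could be tested, 2 had a fitted change below 0 and 4 above, and the groups overlapped for all 6. The 3 with the smallest p were Apcs, the serum amyloid P component (-0.40, limma adjusted p = 0.392), Cidec, a lipid droplet protein (0.23, adjusted p = 0.745), and Hamp, the iron hormone hepcidin (0.14, adjusted p = 0.746).

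Atf3 and Ddit3 lay on the other side. Atf3 (chromosome 1, 191170296 to 191218039, minus strand), a stress-induced repressor and activator that also answers to inflammatory signals, was at 2.79 and 2.36 FPKM in the control and at 4.48 and 7.02 FPKM in the 7KC libraries. Both 7KC libraries were above both controls, and 7KC replicate 2 stood highest. The group means differed 2.23-fold, and the log2 change was 0.99 (SE 0.23, 95% interval 0.42 to 1.57, limma adjusted p = 0.121, over the alternatives 0.083 to 0.457). At these levels Atf3 rested on roughly 58 to 173 reads per library.

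Ddit3 (CHOP; chromosome 10, 127290774 to 127296288, plus strand), the transcription factor tied to cell death after prolonged stress, was at 8.64 and 5.07 FPKM in the control and at 9.04 and 9.20 FPKM in the 7KC libraries. Control replicate 1 lay close under the 7KC libraries, and control replicate 2 lay apart from the rest. The log2 change of 0.43 (SE 0.25, limma adjusted p = 0.414) was 0.07 without control replicate 2. Ddit3 overlaps Mars on the opposite strand. Mars was at 16.8 and 17.9 FPKM in the control and at 14.3 and 12.7 FPKM in the 7KC libraries. The library kit was stranded, but the strand setting used for counting is not given in the sources used here. Reads from Mars could thus have entered the value of Ddit3, and their part was not tested.

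The summed level of monocyte and macrophage markers was highest in 7KC replicate 2 and lowest in control replicate 2, as were Atf3 and Ddit3. Outside control replicate 2, however, Ddit3 lay between 8.64 and 9.20 FPKM, while the marker sum went from 709 to 1961 FPKM. Most of that sum was Lyz2, at 538 and 321 FPKM in the control and 995 and 1583 FPKM in the 7KC libraries. The summed T and NK cell markers, at 25.4 and 16.1 FPKM in the control and 59.5 and 53.0 FPKM in the 7KC libraries, were instead highest in 7KC replicate 1. The part of either list in these differences was not tested. Of 13 immediate-early genes tested, which answer quickly to growth factors, handling and stress, 2 were without overlap above and 2 below. Among all genes tested these shares were 25.1% and 27.4%. The median log2 change of the 13 genes was 0.01, or 0.22 at the same sum, beside 0.17 for all genes. The 3 immediate-early genes with the smallest p were Ier3 (0.96, limma adjusted p = 0.0534), Klf6 (0.70, adjusted p = 0.142) and Zfp36 (-0.35, adjusted p = 0.218).

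**Figure D2:**
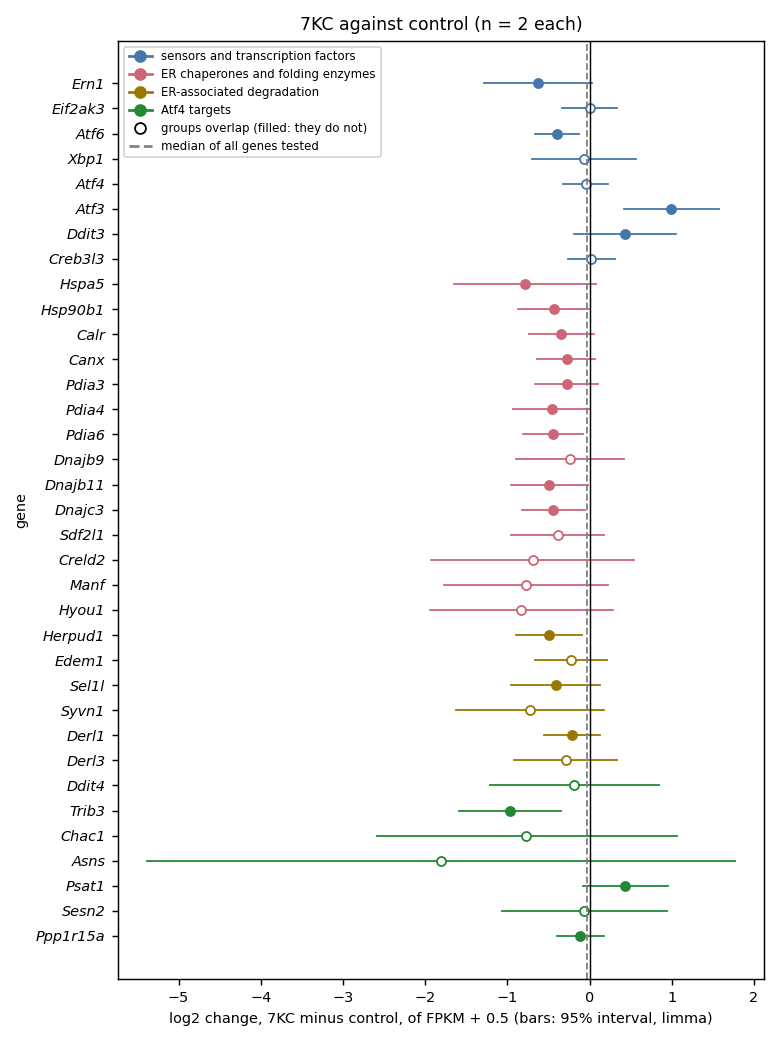
Log2 change, 7KC minus control, of FPKM + 0.5 for each of the 35 genes with its 95% interval from limma (n = 2 each), filled where the groups did not overlap and open where they did. The dashed line is the median of all genes tested, -0.03, and Atf3 is the gene farthest to the right, at 0.99.

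ER chaperones and folding enzymes shared a direction. All 14 had a fitted change below 0, between -0.83 and -0.24, with a median of -0.44. For 9 of the 14 both 7KC libraries lay below both controls, against 27.4% of all genes tested. At an unadjusted limma p under 0.05, 4 were lower, against 5.81%, and none passed after adjustment. Their summed level was 2953 and 2304 FPKM in the control and 2128 and 1663 FPKM in the 7KC libraries. Each library thus had its own level, with 7KC replicate 1 close under control replicate 2.

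Hspa5 (BiP; chromosome 2, 34771970 to 34777547, plus strand), the main ER chaperone and a standard readout of ER stress, was at 539 and 320 FPKM in the control and at 310 and 187 FPKM in the 7KC libraries. Control replicate 1 stood 1.69-fold above control replicate 2, and 7KC replicate 1 stood 1.65-fold above 7KC replicate 2. The means of the groups differed by about as much, 1.73-fold, whereas control replicate 2 and 7KC replicate 1 were 1.03-fold apart. The log2 change of -0.78 (SE 0.34, 95% interval -1.65 to 0.08) was thus close in size to the difference between the replicates of either group, 0.75 in the control and 0.72 in the 7KC group on the same scale, and did not pass (limma adjusted p = 0.317). It was -0.41 without control replicate 1 and -0.42 without 7KC replicate 2.

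4 folding genes had an unadjusted p under 0.05. Pdia6, a protein disulfide isomerase that also attenuates Ern1 signalling, was at 221 and 196 FPKM in the control and at 166 and 140 FPKM in the 7KC libraries (log2 change -0.45, SE 0.14, limma adjusted p = 0.217). Dnajc3 (p58IPK), a cochaperone of Hspa5, was at 90.7 and 72.4 FPKM against 62.5 and 56.5 FPKM (log2 change -0.44, SE 0.15, adjusted p = 0.229). In both genes the groups did not overlap, and control replicate 2 stood 1.18-fold and 1.16-fold above 7KC replicate 1.

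Dnajb11, another Hspa5 cochaperone, was at 85.1 and 66.2 FPKM in the control and at 60.0 and 47.1 FPKM in the 7KC libraries (log2 change -0.49, SE 0.19, limma adjusted p = 0.262). Pdia4, a disulfide isomerase, was at 132 and 102 FPKM against 93.2 and 75.4 FPKM (log2 change -0.46, SE 0.18, adjusted p = 0.279). The libraries of these genes stood in the order control 1, control 2, 7KC 1, 7KC 2 from highest to lowest. This order held for 9 of the 14 chaperones and folding enzymes, and for 1147 of the 12299 genes tested.

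The groups did not overlap either for Hsp90b1, Calr, Canx and Pdia3. Hsp90b1 (GRP94), the ER form of Hsp90, had a log2 change of -0.43, Calr (calreticulin) of -0.35, Canx (calnexin) of -0.28 and Pdia3, which folds the glycoproteins that both lectins hold, of -0.28. Limma adjusted p-values of these 4 were between 0.284 and 0.382. Calr was the most abundant of the 35 genes, at 620 FPKM in each control library and at 539 and 441 FPKM in the 7KC libraries.

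In 3 genes with fitted changes near or beyond that of Hspa5 the control replicates differed by more than those of Hspa5. Hyou1 (GRP170), the nucleotide exchange factor of Hspa5, was at 89.0 and 40.2 FPKM in the control and at 44.3 and 25.3 FPKM in the 7KC libraries. Manf, a secreted ER stress protein, was at 83.4 and 45.1 FPKM against 48.6 and 26.3 FPKM. Creld2, a disulfide isomerase-like ER protein, was at 124 and 46.5 FPKM against 59.0 and 37.1 FPKM. In all 3 the groups overlapped, because 7KC replicate 1 lay above control replicate 2. The control libraries differed 2.21-fold in Hyou1, 1.85-fold in Manf and 2.66-fold in Creld2, and the log2 changes between the groups, -0.83, -0.77 and -0.69, had limma adjusted p-values of 0.383, 0.372 and 0.496. These 3 were singled out after their values were seen. Manf overlaps Rbm15b on the same strand, which was at up to 4.03 FPKM. The groups also overlapped for Sdf2l1, a partner of the Hspa5 chaperone system (-0.38), and Dnajb9 (ERdj4), a cochaperone and Xbp1 target (-0.24).

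The shared direction of the chaperone group stood beside a spread between replicates of similar size. The median over the 14 genes of the difference between the control replicates was 0.37 on the log2 scale, and that between the 7KC replicates was 0.31, whereas the median difference of 7KC replicate 1 from control replicate 2 was -0.08. Without control replicate 1 the median change was -0.28, and 12 of the 14 genes remained below 0, with Dnajb9 at 0.14 and Creld2 at 0.01. Without control replicate 2 it was -0.63. When each library was scaled to the same sum, all genes shifted to a median of 0.17 and the chaperones to -0.24, which was -0.41 relative to all genes, beside -0.42 on the deposited scale. After quantile normalization the median was -0.33, or -0.25 relative to all genes. All 14 genes were below 0 at the same sum, with median ratio scaling and after quantile normalization.

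Hepatocyte markers, like the chaperones, lay lower in the 7KC group, but the order of their libraries depended on Alb (albumin). With Alb their sum was highest in control replicate 1, as for the chaperones. Without Alb it was 48442 and 51851 FPKM in the control and 40290 and 34523 FPKM in the 7KC libraries, with control replicate 2 highest. The median difference of control replicate 1 from 2 was 0.09 on the log2 scale for the hepatocyte markers and 0.37 for the chaperones. The chaperone sum was 3.28% and 2.99% of the hepatocyte marker sum in the controls, against 3.16% and 3.11% in the 7KC libraries. Without Alb, which was at 41547 FPKM in control replicate 1 and 25202 FPKM in control replicate 2, these shares were 6.10% and 4.44% in the control and 5.28% and 4.82% in the 7KC libraries. Over Hnf4a, a transcription factor of hepatocytes, the chaperone sum was 19.1 and 15.3 times as high in the control and 16.3 and 13.3 times in the 7KC libraries. Over all 3 denominators the groups overlapped. These ratios were chosen after the values were seen, and the part of hepatocyte content in the chaperone values was not tested.

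Plasma cells are another abundant source of ER chaperones. Of 8 plasma and B cell markers tested, 6 had a fitted change above 0, and the median change of the list was 0.36. For 3 of them the 7KC libraries lay above both controls, against 25.1% of all genes tested. The list's sum was 29.5 and 14.0 FPKM in the control and 30.3 and 31.8 FPKM in the 7KC libraries, and Tnfrsf17 was listed at 0 in control replicate 2 and 7KC replicate 1. Of the 8 tested, 5 were highest in control replicate 1, among them Jchain, the joining chain of secreted antibodies. Jchain was at 7.12 FPKM there, against 0.571 to 1.57 FPKM in the other libraries. The 3 without overlap, all higher in the 7KC libraries, were Cd79b, Prdm1 and Cd38. Control replicate 1 was also the highest library for all 14 chaperones, and for 3213 of the 12299 genes tested. The part of plasma cells in the chaperone values was not tested. Of 11 markers of exocrine pancreas, a tissue rich in ER, 6 were listed at 0 in every library.

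**Figure D3:**
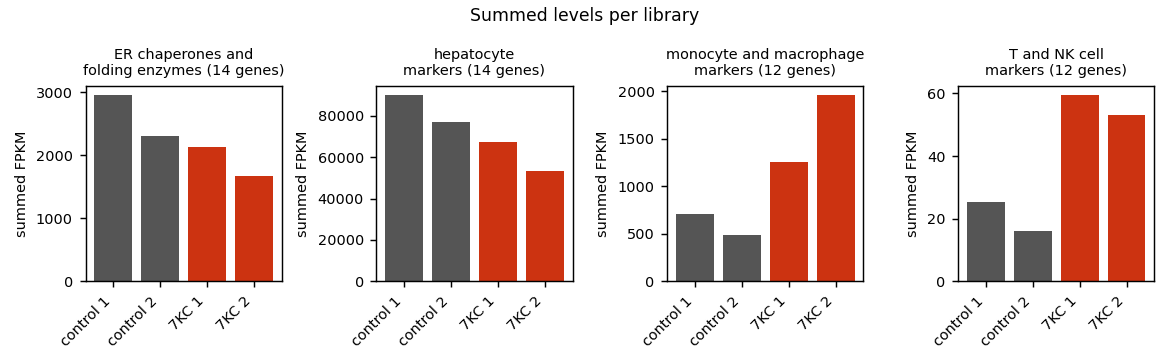
Summed FPKM per library of the 14 ER chaperones and folding enzymes and of the markers of hepatocytes (14 genes), monocytes and macrophages (12) and T and NK cells (12). The chaperone bars go from 2953 in control replicate 1 to 1663 in 7KC replicate 2, the hepatocyte bars take the same order only with Alb included, since without it control replicate 2 is highest, and both immune lists are higher in both 7KC libraries.

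The 6 genes of ER-associated degradation, which draws misfolded proteins out of the ER for the proteasome, all had a fitted change below 0, with a median of -0.35. For 3 of them both 7KC libraries lay below both controls, against 27.4% of all genes tested. All 6 were below 0 under each of the other scalings too, with a median of -0.15 at the same sum, or -0.32 relative to all genes. Herpud1 (chromosome 8, 94386438 to 94395377, plus strand), a scaffold of the degradation complex, was at 302 and 252 FPKM in the control and at 181 and 214 FPKM in the 7KC libraries. Here 7KC replicate 1 was the lowest library, unlike in the chaperones, and control replicate 2 stood 1.40-fold above it. The log2 change was -0.49 (SE 0.16, 95% interval -0.89 to -0.09, limma adjusted p = 0.215).

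Sel1l, the adaptor of the ubiquitin ligase Syvn1, had a log2 change of -0.41 and Derl1, a part of the exit channel, of -0.21. Both were without overlap between groups, but by small margins. Sel1l was at 26.0 FPKM in control replicate 2 and 25.7 FPKM in 7KC replicate 1. Derl1 was at 47.6 FPKM in control replicate 1 and 47.1 FPKM in 7KC replicate 1. Syvn1 (HRD1) itself was at 64.5 and 36.2 FPKM in the control and at 37.6 and 22.4 FPKM in the 7KC libraries, a pattern over the libraries like that of Hspa5. Its log2 change of -0.73 had a limma adjusted p of 0.356. Syvn1 overlaps Mrpl49 on the opposite strand, which was at up to 13.6 FPKM. Edem1, a mannosidase-like protein that marks glycoproteins for degradation, had a log2 change of -0.23, and Derl3, a relative of Derl1, of -0.29, both with overlap. Without control replicate 1 the median of the group was -0.22 and Derl3 was at 0.03, and without control replicate 2 the median was -0.61.

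The Atf4 targets did not share a pattern over the libraries. Of the 7 genes, 6 had a fitted change below 0, and the median was -0.19. The groups were without overlap for Trib3 and Ppp1r15a below, against 27.4% of all genes tested. Psat1 alone was without overlap above, against 25.1%. Trib3 (chromosome 2, 152337422 to 152344032, minus strand), a pseudokinase that holds back Atf4 and Ddit3, was at 9.71 and 6.14 FPKM in the control and at 4.22 and 3.25 FPKM in the 7KC libraries. The group means differed 2.12-fold and the replicates 1.58-fold and 1.30-fold. The log2 change was -0.97 (SE 0.25, 95% interval -1.59 to -0.35, limma adjusted p = 0.142, over the alternatives 0.117 to 0.586).

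Ppp1r15a (GADD34), the phosphatase subunit that restores eIF2α, lay between 7.70 and 8.72 FPKM in the 4 libraries, with a log2 change of -0.12. Psat1, an enzyme of serine synthesis, was low at 0.651 to 1.32 FPKM, resting on roughly 26 to 44 reads per library, and its log2 change was 0.43 (limma adjusted p = 0.343). Its partner enzyme Phgdh had a log2 change of 0.58, with overlap between the groups (limma adjusted p = 0.436), and was named after its value was seen.

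Asns (chromosome 6, 7675169 to 7693254, minus strand), asparagine synthetase and the classic amino acid response gene, was at 0.372 and 20.0 FPKM in the control and at 0.592 and 0.839 FPKM in the 7KC libraries. Control replicate 2 thus stood 53.8-fold above the other control library, at roughly 502 reads against 12, and 23.8-fold above the next library. The fitted log2 change of -1.81 (SE 1.41, limma adjusted p = 0.546, over the alternatives 0.00765 to 0.829) belonged to that single library. Without control replicate 2 it was 0.47, and without control replicate 1 it was -4.08 and passed (limma adjusted p = 0.00765). Of all 24346 symbols, 8 stood in control replicate 2 at 5 FPKM or more and at least 8-fold above the next library on the FPKM + 0.5 scale. Asns was the only one of the 35 genes among them in any library.

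Chac1, which degrades glutathione, was likewise highest in control replicate 2. It was at 8.84 and 26.8 FPKM in the control and at 16.6 and 4.67 FPKM in the 7KC libraries, so that replicates differed 3.03-fold in the control and 3.55-fold in the 7KC group. Trib3, in contrast, was highest in control replicate 1. Ddit4 (REDD1), an inhibitor of mTORC1 that also follows glucocorticoids and hypoxia, was at 38.2 and 24.9 FPKM in the control and at 18.2 and 40.0 FPKM in the 7KC libraries. Sesn2, another inhibitor of mTORC1, was at 6.83 and 3.18 FPKM against 3.35 and 5.86 FPKM. The groups overlapped for all 3, with log2 changes of -0.77, -0.19 and -0.07 and limma adjusted p-values of 0.616, 0.846 and 0.944. Asns, Chac1, Ddit4 and Sesn2 were given by library after their values were seen. The median of the Atf4 targets was 0.02 when libraries were scaled to the same sum, beside 0.17 for all genes.

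**Figure D4:**
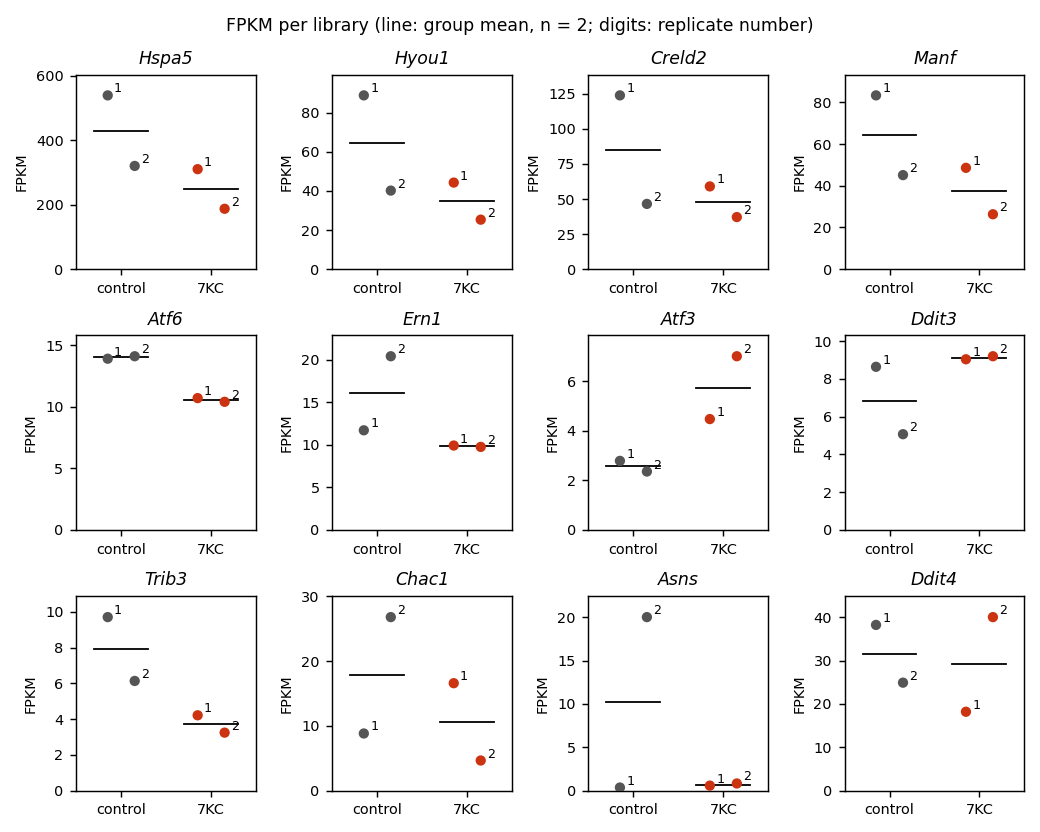
FPKM in each library for 12 of the genes, with the group mean as a line (n = 2 each) and replicate numbers beside the points. The control replicates of Hspa5, Hyou1, Creld2 and Manf differ by about as much as or more than the groups, Atf6 and Trib3 are lower and Atf3 and Ddit3 higher in both 7KC libraries, and Asns is high in control replicate 2 alone.

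The wider pathway was followed through 124 further genes, of which 117 could be tested, with 86 fitted changes below 0 and 31 above. At an unadjusted limma p under 0.05, 15 were lower and 9 higher, against 5.81% and 12.0% of all genes tested. Both 7KC libraries lay below both controls for 50 of the genes and above both for 17, against 27.4% and 25.1%. None passed after adjustment in limma, and the median was -0.16. The lists differed in direction. Of 18 other ER-associated degradation genes, all 18 had a fitted change below 0 and 14 were without overlap, with a median of -0.15. The sign depended on the scaling, since at the same sum 6 of the 18 were below 0 and the median was 0.05, beside 0.17 for all genes. Relative to all genes the median of this list was -0.13 on the deposited scale, -0.11 at the same sum and -0.05 after quantile normalization. The 3 with the smallest p were Derl2, a relative of Derl1 (-0.58, limma adjusted p = 0.201), Vimp, which recruits the extraction ATPase (-0.45, adjusted p = 0.249), and Os9, a lectin that hands glycoproteins to Sel1l (-0.30, adjusted p = 0.265).

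Other ER folding enzymes had 16 of 20 fitted changes below 0 and a median of -0.24, or 12 of 20 and -0.05 at the same sum. Relative to all genes the median was -0.22 on both scales and -0.10 after quantile normalization. Selm, a thioredoxin-like selenoprotein, lay above (0.91, limma adjusted p = 0.132), whereas Ppib, the ER cyclophilin, lay below (-0.54, adjusted p = 0.133), as did Cnpy2 (-0.30, adjusted p = 0.24). The machinery that carries proteins into the ER and out in COPII vesicles had 22 of 24 fitted changes below 0 and a median of -0.28, or 18 of 24 and -0.07 at the same sum. Relative to all genes its median was -0.25, or -0.24 at the same sum and -0.12 after quantile normalization. For 11 of the 24 both 7KC libraries lay below both controls, against 27.4% of all genes tested. Lman1, the cargo receptor for clotting factors, was at -0.46 (adjusted p = 0.195), its partner Mcfd2 at -0.31 (adjusted p = 0.252) and Sec61a1, the translocon pore, at -0.40 (adjusted p = 0.266).

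Chaperones outside the ER lay lower as well. Cytosolic and mitochondrial heat shock genes answer mainly to Hsf1 and mitochondrial stress. Of 15 tested, all 15 had a fitted change below 0, with a median of -0.26. For 12 of them both 7KC libraries lay below both controls, against 27.4% of all genes tested. At the same sum 12 of the 15 were below 0, with a median of -0.06 beside 0.17 for all genes. Relative to all genes the median was -0.23 on both scales and -0.11 after quantile normalization. Hsph1 was at -0.90 (limma adjusted p = 0.0848), Hsp90aa1 at -0.45 (adjusted p = 0.151) and Hspa9, the mitochondrial Hsp70, at -0.44 (adjusted p = 0.192). This list, like that of the hepatocyte markers, shared the direction of the ER chaperones.

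The integrated stress response beyond Atf4 had no common direction on the deposited scale. The other eIF2α kinases Eif2ak1, Eif2ak2 and Eif2ak4, with eIF2α itself (Eif2s1) and the phosphatase subunit Ppp1r15b, had log2 changes between -0.14 and 0.20. At the same sum, where the median of all genes was 0.17, all 5 were above 0, with a median of 0.13. Of 19 amino acid and Atf4-linked genes tested, 8 had a fitted change below 0 and 11 above, with a median of 0.09, or 5 below and 14 above with a median of 0.25 at the same sum. Those with the smallest p lay above, namely Jdp2, a repressor related to Atf3 (0.80, limma adjusted p = 0.0989), Nupr1, a stress-induced chromatin protein (0.74, adjusted p = 0.132), and Mthfd2, a mitochondrial folate enzyme (0.79, adjusted p = 0.191). Among 12 aminoacyl-tRNA synthetases, most of which Atf4 can switch on, 10 had a fitted change below 0, or 6 at the same sum, with Tars at -0.69 (adjusted p = 0.142) and Cars at -0.35 (adjusted p = 0.223). Wars, which interferon also induces, was at 0.70 (adjusted p = 0.104).

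The list of sensor processing and apoptosis genes was split evenly, with 7 of 14 fitted changes below 0 and 7 above. At the same sum, where the median of all genes was 0.17, the list had 2 below 0 and 12 above. Its 3 genes with the smallest p all lay above. Casp12, a caspase of the ER membrane, was at 0.67 (limma adjusted p = 0.205), Pmaip1 (Noxa), a promoter of apoptosis, at 0.80 (adjusted p = 0.223) and Bcl2l11 (Bim), another, at 0.42 (adjusted p = 0.258). The summed macrophage and T cell markers were higher in both 7KC libraries, and their part in these values was not tested.

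**Figure D5:**
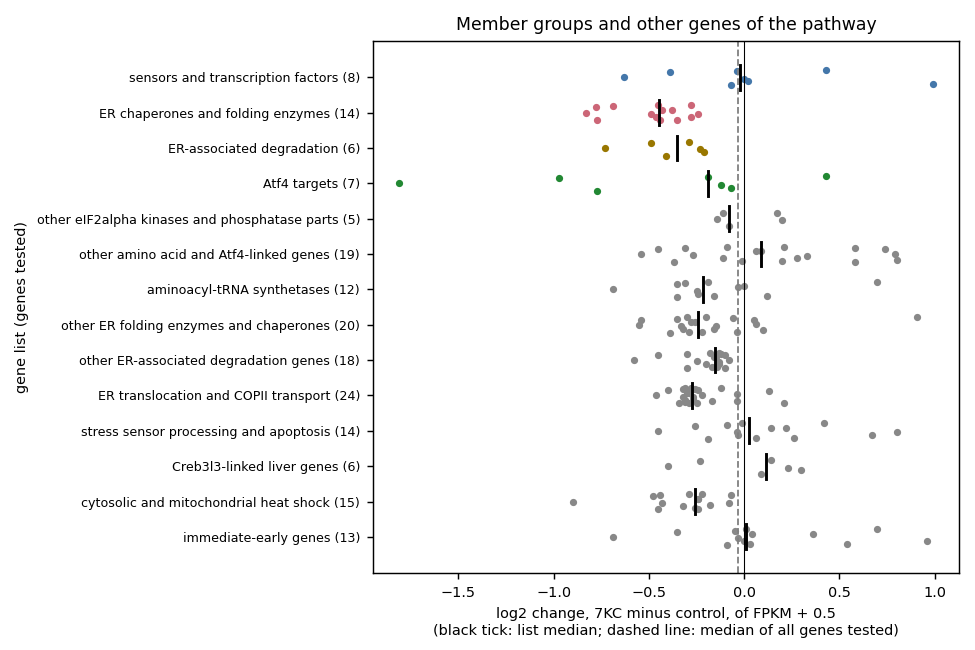
Log2 change, 7KC minus control, of FPKM + 0.5 for each gene tested (points) in the 4 groups of the 35 genes (coloured) and in 10 further lists (grey), with the list median as a black tick. The chaperones have the lowest median, -0.44, and the dashed line marks the median of all genes tested, -0.03.

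Promoter elements were set beside the changes. An exact ERSE stood in the windows of 16 of the 9375 tested genes that had a window (0.171%), and 9 of these 16 belonged to the 35 genes, 7 of them among the 12 chaperones and folding enzymes with a window. The 9 had a median log2 change of -0.44, and all 9 were below 0. For the 7 other genes, Acacb, Acnat2, Alg12, Hnrnpa3, Pan2, Spats2l and Xlr3a, the median was -0.11, and 5 were below 0. Creld2, Hspa5, Hsp90b1 and Syvn1, whose windows are printed above, all stood highest in control replicate 1 and lowest in 7KC replicate 2. Derl3, which also held an ERSE, was lowest in 7KC replicate 1. Pdia3, Pdia4, Dnajb11 and Sdf2l1, whose windows held no exact ERSE, likewise stood highest in control replicate 1 and lowest in 7KC replicate 2. Dnajb9, also without one, was lowest in control replicate 2. All of these had a fitted change below 0, and the part of the ERSE was not tested. The 5 genes with CARE did not share a pattern, since Atf3 was highest in 7KC replicate 2, Herpud1 and Trib3 in control replicate 1 and Chac1 and Asns in control replicate 2.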

How the data were processed

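Liver mRNA in 4 samples was sequenced by the authors from stranded libraries as single-end reads and mapped to mm10. The authors deposited FPKM, with each symbol listed once in the file of each library, and no counts were used. The submitters' processing notes name TopHat2 2.1.1, Bowtie2 2.2.8, SAMtools 0.1.18 and Cuffdiff 2.2.1, and the study's methods name Cufflinks and other versions. The gene annotation and the settings for strand and reads with several matches are not given in the sources used here. FPKM is relative to all reads of a library, so a change in abundant genes moves all others.

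Samples were grouped by the diet in their labels. Values were compared as log2(FPKM + 0.5) for 12299 genes whose average over the libraries reached 0.5 FPKM. The test was limma 3.58.1 under R 4.3.3 (lmFit, then eBayes with trend, two-sided, 2 residual and 3.27 prior degrees of freedom) and Benjamini-Hochberg adjustment over all genes tested. The code was tested on simulated data. The 35 genes and all lists were chosen with earlier results of these data known, so no test over a list was made, and lists are described by counts and medians. All 35 genes are named. Values in every library are given for those with an unadjusted p under 0.05 and for Ern1, Eif2ak3, Atf6, Xbp1, Atf4, Ddit3 and Hspa5. From each other list the 3 genes with the smallest p are named, and other names were added after values were seen. Marker lists are described by counts and sums.

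Depth was estimated from low values of single-transcript genes (GENCODE M21, mm10), under 0.2 FPKM, as the value of 1 read, with 200 bases taken off each length. Of the low values, 69.5% to 71.3% then came to within 0.1 of a whole read. Alternatives were another pseudocount, filter, scaling or prior, a replicate block and leaving out each library.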

Additional observations from a re-analysis of the deposited data

How the results depend on the processing

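No gene of the 35 passed the limma threshold under any alternative that kept all libraries and their given numbers. Of the 35, 23 kept their direction under each of the 14 alternatives in which they were tested. Among these 23, Psat1 was not tested with a mean of at least 1 or 5 FPKM, and Atf3 not with at least 5 FPKM. Over all genes, the 59 higher and 3 lower became 111 higher with a pseudocount of 1 FPKM, 0 and 1 without a filter (16858 genes tested, 2634 at an unadjusted p under 0.05), 122 higher with median ratio scaling, 402 and 7 at the same sum, and 39 and 1 without a trend. Leaving out 1 library gave 2 to 389 higher and 1 to 52 lower, and 0 to 2 lower of the 35 genes, the 2 being Asns and Ern1 without control replicate 1. With a replicate block 0 genes were higher and 0 lower over all genes (1851 at an unadjusted p under 0.05), and 16 of the 35 genes had an unadjusted p under 0.05. The numbers share no stated source, and the differences of replicate 1 from 2 correlated at -0.141 across 12299 genes, so they were not taken as pairs. A crossed pairing, chosen after seeing the data, gave 551 higher and 37 lower genes, with 1 of the 35 higher and 1 lower. The median of the Atf4 targets was -0.48 with a mean of at least 1 FPKM, -0.77 with at least 5 FPKM (fewer genes tested) and 0.02 at the same sum, and that of the sensors and transcription factors was 0.18 at the same sum, beside 0.17 for all genes. Leaving out 1 library gave medians of -0.06 to 0.05 for sensors and transcription factors, -0.63 to -0.28 for chaperones, -0.61 to -0.22 for degradation genes and -0.43 to -0.07 for Atf4 targets. At the same sum Eif2ak3 was at 0.19, Xbp1 at 0.14, Atf4 at 0.16, Ddit4 at 0.02, Sesn2 at 0.12 and Ppp1r15a at 0.08. Eif2ak3 was at 0.03 with median ratio scaling, and Xbp1 at 0.07 with quantile normalization. Leaving out 1 library turned the direction of Eif2ak3 (-0.08 to 0.07), Xbp1 (-0.43 to 0.30), Atf4 (-0.09 to 0.01), Creb3l3 (-0.02 to 0.06), Dnajb9 (-0.62 to 0.14), Creld2 (-1.40 to 0.01), Derl3 (-0.61 to 0.03), Ddit4 (-0.74 to 0.37), Chac1 (-1.63 to 0.09), Asns (-4.08 to 0.47) and Sesn2 (-0.57 to 0.43). Beyond the construction named, the cause was not tested. Genes under about 1 FPKM, such as Psat1 and Asns outside control replicate 2, rest on few reads.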
